A study of Mus musculus with 23 samples.

Results

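Border-associated macrophages are the resident macrophages of the perivascular spaces, the meninges and the choroid plexus, and they are distinct from the microglia of the brain parenchyma. They carry scavenger and endocytic receptors that take up proteins, lipoproteins and hyaluronan from the fluid around vessels, and they are found only in small numbers in a preparation of brain tissue. CD11b is on the surface of microglia and of these macrophages alike, so a CD11b sort of hippocampal tissue keeps both. The 9 genes described here are markers of perivascular and meningeal macrophages, and they were taken by gene symbol. Mrc1, Lyve1, Cd163, Stab1 and Colec12 encode endocytic or scavenger receptors, Folr2 encodes a folate receptor, Pf4 a chemokine, F13a1 the A chain of coagulation factor XIII, and Cbr2 a carbonyl reductase. All 9 were among the 18876 genes of the deposited table, and all 9 passed the filter on low counts.

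The counts came from CD11b+ cells, sorted with magnetic beads from both hippocampi of female mice and sequenced in bulk. All animals were Slc11a2flfl;Cx3cr1Cre-ERT2+/- on a mixed 129S;C57BL/6J background, so that tamoxifen deletes part of Slc11a2, the gene of the iron importer DMT1, in cells in which the Cx3cr1 promoter is active. At an age of 5 to 6 months, tamoxifen (4 mg, oral gavage, 5 daily doses) was given to the Slc11a2KD groups and 200 µL of corn oil to the Control groups. Cells were taken at 15 to 18 months. Hemizygous APP/PS1 animals, which carry a transgene for an amyloid precursor protein joined from mouse and human parts and one for a mutant presenilin-1, were compared with WT littermates. The groups used were Control WT (n = 6), Control APP/PS1 (n = 6), Slc11a2KD WT (n = 5) and Slc11a2KD APP/PS1 (n = 5), 22 of the 23 samples in the table. Oil and tamoxifen differ between Control and Slc11a2KD, and an effect of tamoxifen itself and of the deletion cannot be told apart. Cx3cr1-driven Cre is also active in macrophages other than microglia.

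Libraries held 31128643 to 54872491 counts. Levels are CPM (counts scaled to a library of fixed size) after TMM scaling. Slc11a2 was at 29.9 to 43.7 CPM in Control WT, 39.99 to 48.2 CPM in Control APP/PS1, 27.1 to 38.1 CPM in Slc11a2KD WT and 37.8 to 75.1 CPM in Slc11a2KD APP/PS1, so its gene total was not lower in the libraries labelled Slc11a2KD. That total also counts exons that the deletion leaves in place, and it does not check the labels. The study assessed the deletion by read coverage along the exons of Slc11a2 and by RT-qPCR, neither of which was analysed here. Over 9 genes, microglial markers summed to 40209 ± 2202 CPM in Control WT (mean ± SD, n = 6), and the 9 border-associated macrophage genes to 723 ± 178 CPM. Stab1 alone made up a median of 53.6% of the latter sum over the 22 libraries (25.9 to 63.6%). Of the 22 libraries, 9 carried the choroid plexus transcript Ttr at 29.5 to 996 CPM, and the other 13 were at or below 1.08 CPM. Lyve1 had 0 counts in Control WT 15 and Slc11a2KD APP/PS1 23, which allows a level of up to 0.0886 and 0.0964 CPM (3 counts, counting error only).

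The genes lie apart in the mouse genome (GRCm39, GENCODE M39). Mrc1 is at chr2:14234151-14336926 on the plus strand, Stab1 at chr14:30860970-30890598 on the minus strand and Cbr2 at chr11:120620312-120622940 on the minus strand. Cd163 (chr6:124281606-124307560) and Pf4 (chr5:90918479-90922110) are on the plus strand, and Lyve1 (chr7:110448585-110462460), F13a1 (chr13:37051152-37234277) and Folr2 (chr7:101489195-101506401) on the minus strand. Folr2 is next to its paralogue Folr1 (chr7:101507537-101520014), a gene of choroid plexus epithelium. Stab2, the paralogue of Stab1, was at 1.65 CPM or less in every sample. The 250 bases before the start of the canonical transcript are printed for Mrc1 and Stab1, whose levels varied together across samples (r 0.80, group means removed), and for Cbr2, whose r with Stab1 was 0.04. Capitals mark GGAAGT, the core that PU.1 binds, and TGCTGA, a MAF half-site, on either strand.
Mrc1 (chr2:14233901-14234150, plus strand): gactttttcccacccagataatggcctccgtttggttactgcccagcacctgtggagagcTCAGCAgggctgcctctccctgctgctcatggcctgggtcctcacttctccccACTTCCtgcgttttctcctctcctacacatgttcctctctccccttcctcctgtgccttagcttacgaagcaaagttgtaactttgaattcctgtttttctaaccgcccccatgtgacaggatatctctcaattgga
Stab1 (chr14:30890599-30890848, minus strand): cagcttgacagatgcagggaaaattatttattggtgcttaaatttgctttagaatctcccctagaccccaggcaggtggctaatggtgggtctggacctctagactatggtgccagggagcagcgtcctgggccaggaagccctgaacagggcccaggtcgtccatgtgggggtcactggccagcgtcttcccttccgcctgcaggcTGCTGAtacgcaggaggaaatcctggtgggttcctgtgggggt
Cbr2 (chr11:120622941-120623190, minus strand): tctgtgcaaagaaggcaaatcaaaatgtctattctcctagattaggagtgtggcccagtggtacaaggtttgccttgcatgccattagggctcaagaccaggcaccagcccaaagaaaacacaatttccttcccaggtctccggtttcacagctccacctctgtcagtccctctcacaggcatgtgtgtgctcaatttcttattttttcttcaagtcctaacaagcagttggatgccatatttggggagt

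PU.1 and MAF factors are transcription factors of macrophages, which is why these letters were searched. GGAAGT was in the window of 1 of the 9 genes, Mrc1, against 19% of 21770 windows over all genes. TGCTGA was in the windows of Mrc1 and Stab1, 2 of 9, against 14.8% of all windows. The windows of the other 7 genes held neither run of letters, while 31% of all windows held at least one. Among these 7 genes, Cd163 and F13a1 had an r of 0.83 and Pf4 and Cbr2 one of 0.73. Whether these letters go with r was not tested.

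Levels are compared between genes per length of the gene model (RPKM). In Control WT, Stab1 (38.4 ± 10.7 RPKM, mean ± SD, n = 6) and Cbr2 (32.5 ± 9.50 RPKM) were highest. Pf4 followed at 18.6 ± 4.13 RPKM, Folr2 at 13.03 ± 5.86 RPKM, Mrc1 at 12.7 ± 3.39 RPKM, F13a1 at 9.87 ± 2.99 RPKM and Cd163 at 7.83 ± 3.42 RPKM. Lyve1 (1.09 ± 0.800 RPKM) and Colec12 (0.353 ± 0.120 RPKM) were lowest. The means of Stab1 and Cbr2, and those of Folr2, Mrc1 and F13a1, lay within the range of each other's samples. That of Cd163 lay within the ranges of Folr2 and F13a1 and below the lowest Mrc1 sample (8.87 RPKM). The same pair was highest and the same pair lowest in all 4 groups.

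To determine how the genes differ with amyloid, Control APP/PS1 was compared with Control WT. In Control APP/PS1, 7 of the 9 genes were lower, 1 was higher (Colec12) and 1 (Lyve1) did not pass the threshold (edgeR quasi-likelihood test, adjusted p under 0.05 over all genes tested). Of all 18759 genes tested, 10.5% passed, 4.48% as lower and 5.99% as higher. The median log2 fold change of the 9 genes was -1.29, against -0.02 over all genes. In bulk samples, fewer cells of a type and less RNA per cell cannot be told apart.

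**Figure D1:**
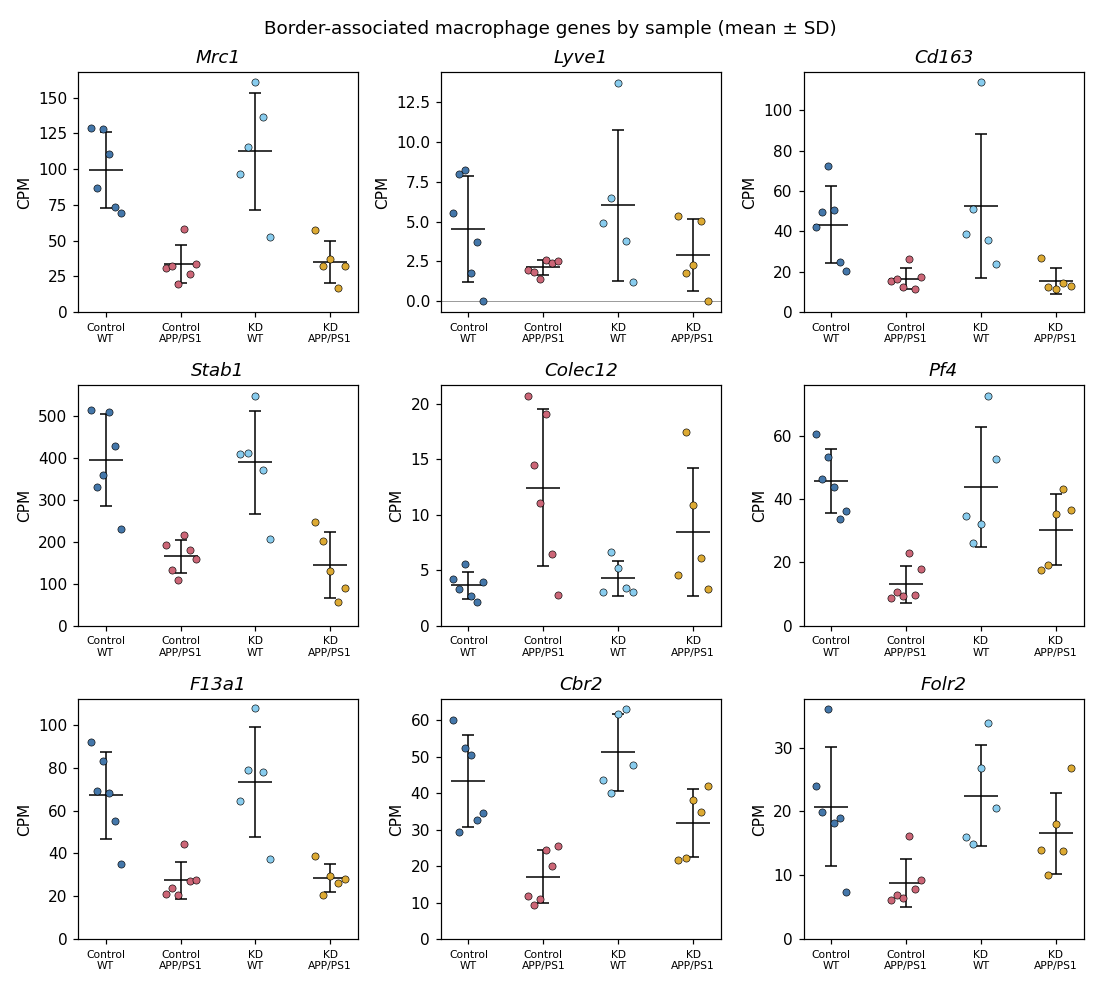
CPM of each gene in each of the 22 samples, on linear axes that start at 0 or just below. Points are samples, and the horizontal line and bars are the mean and SD of the group. Mrc1, Stab1, Pf4 and Cbr2 do not overlap between Control WT and Control APP/PS1, and Colec12 is the one gene with a higher mean in the APP/PS1 groups.

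Among the scavenger receptors, Mrc1, the mannose receptor that takes up glycoproteins, was at 69.4, 98.9 and 129 CPM in Control WT (lowest, median and highest) and at 19.3, 31.8 and 57.9 CPM in Control APP/PS1. The groups did not overlap, and Mrc1 fell by 1.57 on the log2 scale (SE 0.28, edgeR adjusted p = 0.00048). Of all genes, 3.03% were lower with no overlap between these groups. Stab1, which clears modified lipoproteins and matrix fragments, was at 229.6, 393 and 514 CPM in Control WT and at 109, 169 and 216 CPM in Control APP/PS1. Stab1 did not overlap between the groups and fell by 1.26 (SE 0.29, edgeR adjusted p = 0.00466). Cd163, the receptor for haemoglobin-haptoglobin complexes, was at 20.5, 45.9 and 72.3 CPM in Control WT and at 11.6, 15.7 and 26.4 CPM in Control APP/PS1. Its groups overlapped, because Control WT 14 and 15 lay within the Control APP/PS1 range, and it fell by 1.39 (SE 0.34, edgeR adjusted p = 0.00811).

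Lyve1, a hyaluronan receptor, was at 0, 4.65 and 8.26 CPM in Control WT and at 1.41, 2.17 and 2.61 CPM in Control APP/PS1. The Control WT samples lay on both sides of the Control APP/PS1 range, and the log2 difference of -1.10 (95% interval -2.66 to 0.46) did not pass the threshold (edgeR adjusted p = 0.449). Colec12 (chr18:9707593-9882644, plus strand), a scavenger receptor with a collectin domain that vascular cells also express, went the other way, from 2.11, 3.62 and 5.57 CPM in Control WT to 2.79, 12.8 and 20.7 CPM in Control APP/PS1. It rose by 1.78 on the log2 scale (SE 0.43, edgeR adjusted p = 0.00719). Control APP/PS1 17 was inside the Control WT range and the other 5 were above it. Pericyte and smooth muscle markers summed to 80.4 ± 44.5 CPM in Control WT and 51.0 ± 16.98 CPM in Control APP/PS1, with 2 of 8 genes called lower, 1 higher (Cspg4, named after its value was seen) and 5 not past the threshold.

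Of the remaining genes, Pf4 had the largest decrease of the 9 in the main fit, close to that of Mrc1 (1.57, SE 0.28). Pf4 was at 33.7, 45.1 and 60.6 CPM in Control WT and at 8.63, 10.0 and 22.9 CPM in Control APP/PS1, without overlap, and fell by 1.80 (SE 0.29, edgeR adjusted p = 0.000117). With Control APP/PS1 10 kept, Pf4 fell by 1.54. Cbr2 was at 29.4, 42.6 and 60.0 CPM in Control WT and at 9.35, 15.98 and 25.6 CPM in Control APP/PS1. It did not overlap either and fell by 1.34 (SE 0.25, edgeR adjusted p = 0.000802). F13a1 fell by 1.29 (SE 0.24, edgeR adjusted p = 0.000711), from a median of 68.7 to one of 25.4 CPM. Folr2 fell by 1.24 (SE 0.31, edgeR adjusted p = 0.0108), from a median of 19.4 to one of 7.39 CPM. For both genes the groups overlapped, with Control WT 15, the lowest Control WT sample, below Control APP/PS1 13, the highest Control APP/PS1 sample.

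The 8 genes called in Control animals kept their call and direction in each of 34 alternatives, without each sample in turn among them, and the weakest adjusted p was 0.044 (Colec12, without Control WT 12 and 15). Of the 34, 22 left out 1 sample, in part of them a Slc11a2KD sample that is not in Control WT or Control APP/PS1. Sums of marker genes of other cells also differed between these groups. Endothelial markers summed to 259 ± 86.7 CPM in Control WT and 130.3 ± 15.5 CPM in Control APP/PS1 (6 of 9 genes lower, 1 higher). Monocyte and neutrophil markers summed to 181 ± 94.1 and 61.2 ± 25.6 CPM (5 of 8 lower), oligodendrocyte markers to 1416 ± 815 and 612 ± 242 CPM (4 of 5 lower), and microglial markers to 40209 ± 2202 and 30118 ± 1789 CPM (5 of 9 lower). Neuronal markers summed to 21.2 ± 6.93 and 11.3 ± 1.98 CPM (2 of 5 lower). The sums of endothelial, microglial and neuronal markers did not overlap between these groups. Choroid plexus markers were lower in 14 of 20 cases, and their sum was 2155 and 1113 CPM in Control WT 12 and 15, 11.8 to 15.7 CPM in the other 4 Control WT samples and 5.79 to 12.6 CPM in Control APP/PS1. Fibroblast markers summed to 3.29 ± 2.19 and 1.03 ± 0.855 CPM (all 7 with a negative log2 fold change, none called), lymphocyte markers to 6.17 ± 5.02 and 1.35 ± 0.901 CPM (all 6 negative, 1 called) and ependymal markers to 2.36 ± 2.21 and 0.551 ± 0.340 CPM (all 4 negative, none called). Astrocyte markers summed to 450 ± 259 and 364 ± 173 CPM (1 of 6 higher). The part of these cells in the differences of the 9 genes was not tested.

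The same comparison was made within the Slc11a2KD animals, which share no sample with the Control animals. In Slc11a2KD APP/PS1, 4 of the 9 genes were lower than in Slc11a2KD WT, none was higher, and 5 did not pass the threshold (edgeR, 16.2% of all genes called, 6.41% lower and 9.77% higher). The median log2 fold change was -1.05, against -0.07 over all genes. The genes that were lower were Mrc1, Cd163, Stab1 and F13a1, each also lower in Control APP/PS1. Markers of other cells differed here too. Endothelial markers summed to 229 ± 76.2 CPM in Slc11a2KD WT and 142 ± 34.6 CPM in Slc11a2KD APP/PS1 (5 of 9 genes lower), oligodendrocyte markers to 2019 ± 1001 and 813 ± 296 CPM (2 of 5 lower), and microglial markers to 41853 ± 3549 and 35334 ± 3243 CPM (6 of 9 lower). Monocyte and neutrophil markers summed to 189 ± 158 and 94.9 ± 50.3 CPM, with none of 8 past the threshold, and choroid plexus markers to 293 ± 383 and 264 ± 211 CPM, with none of 20. Neuronal markers summed to 22.4 ± 4.46 and 10.3 ± 1.75 CPM without overlap (all 5 with a negative log2 fold change, 1 called). Pericyte and smooth muscle markers summed to 63.5 ± 24.8 and 49.0 ± 24.2 CPM (1 of 8 lower, 1 higher). Astrocyte markers summed to 212 ± 159 and 266 ± 249 CPM (1 of 6 higher). Fibroblast markers summed to 3.77 ± 2.58 and 1.58 ± 0.550 CPM (all 7 negative, none called), lymphocyte markers to 5.99 ± 4.58 and 3.11 ± 3.88 CPM and ependymal markers to 1.86 ± 1.21 and 1.19 ± 0.701 CPM, none of them called. The part of these cells in the differences of the 9 genes was not tested here either.

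**Figure D2:**
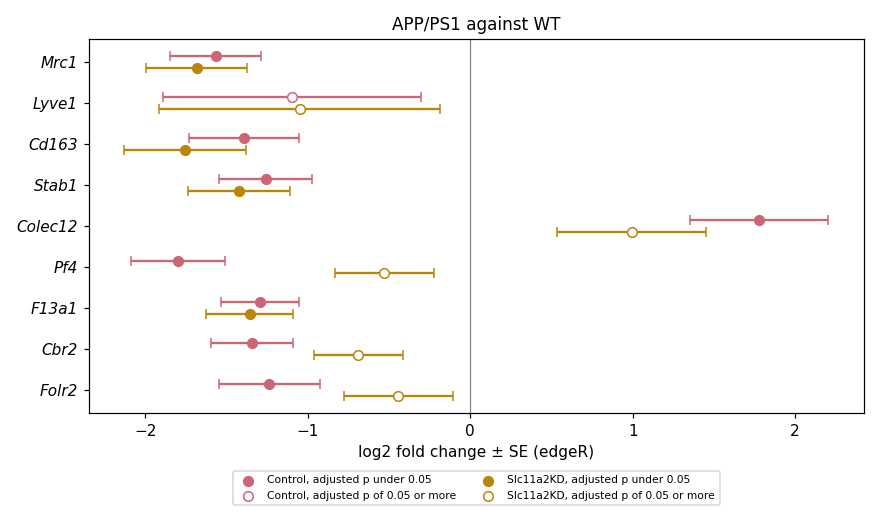
Log2 fold change and its SE (edgeR) of each gene in APP/PS1 against WT, in Control (red) and Slc11a2KD (brown) animals. Filled points passed an adjusted p of 0.05. Mrc1, Cd163, Stab1 and F13a1 lie close together in both, whereas Pf4, Cbr2, Folr2 and Colec12 have values nearer to 0 in Slc11a2KD, a difference that did not pass the interaction test.

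Mrc1 was at 96.8, 115, 161, 136 and 52.6 CPM in the Slc11a2KD WT samples and at 57.2, 32.2, 36.9, 16.7 and 31.9 CPM in the Slc11a2KD APP/PS1 samples. Only Slc11a2KD APP/PS1 4 reached the range of Slc11a2KD WT, and Mrc1 fell by 1.68 on the log2 scale (SE 0.31, edgeR adjusted p = 0.00069). Cd163 was at 38.9, 50.9, 114, 35.6 and 23.7 CPM in Slc11a2KD WT and at 26.8, 12.4, 11.4, 14.3 and 12.9 CPM in Slc11a2KD APP/PS1. Again Slc11a2KD APP/PS1 4 alone overlapped, and Cd163 fell by 1.76 (SE 0.37, edgeR adjusted p = 0.00247). Stab1 was at 409, 412, 548, 371 and 206 CPM in Slc11a2KD WT and at 248, 201, 131, 56.0 and 90.4 CPM in Slc11a2KD APP/PS1. It fell by 1.42 (SE 0.32, edgeR adjusted p = 0.00333), and F13a1 fell by 1.359 (SE 0.27, edgeR adjusted p = 0.0012). These 4 calls held in each of the 34 alternatives, with a weakest adjusted p of 0.043 (Stab1, only the groups compared). Part of the alternatives left out a Control sample, which is in neither of the 2 groups compared here.

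Pf4 was at 34.8, 26.3, 32.2, 72.8 and 52.8 CPM in Slc11a2KD WT and at 17.7, 19.2, 35.3, 43.1 and 36.5 CPM in Slc11a2KD APP/PS1. The groups overlapped in most samples, and the log2 difference was -0.53 (95% interval -1.13 to 0.07, edgeR adjusted p = 0.243). In Slc11a2KD WT the highest values were those of samples 19 and 22, of the libraries numbered 18 to 23. With a term for these numbers Pf4 fell by 0.87 and passed the threshold (edgeR adjusted p = 0.0394). The labels give the number and nothing more about it. Cbr2 differed by -0.69 (95% interval -1.23 to -0.15, edgeR adjusted p = 0.0865), Folr2 by -0.44 (-1.10 to 0.22, adjusted p = 0.404), Lyve1 by -1.05 (-2.75 to 0.65, adjusted p = 0.447) and Colec12 by 0.99 (0.10 to 1.89, adjusted p = 0.138). Single libraries moved several of these values. Nearest to 0, Pf4 was -0.26 and Folr2 -0.25 without Slc11a2KD WT 19. Lyve1 was -0.49 without Slc11a2KD WT 3, and Colec12 was 0.55 without Slc11a2KD APP/PS1 18. The 9 genes had the same sign in both comparisons, as had 67.8% of all genes and 96.5% of the 1965 genes called in Control animals, to which 8 of the 9 belong.

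Next, the genes were compared between Slc11a2KD and Control animals of each genotype. In WT none of the 9 genes passed the threshold (edgeR, 0% of all genes called), with log2 differences from -0.06 (Pf4, 95% interval -0.63 to 0.51) to 0.40 (Lyve1, -1.20 to 2.00). At an unadjusted p under 0.05 there were 0 of the 9 genes and 1110 of all genes. DESeq2 and limma voom called 0 of the 9, and 10 and 1 of all genes.

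In APP/PS1 again none of the 9 genes passed in edgeR (0% of all genes called), while 3 of the 9 and 3862 of all genes had an unadjusted p under 0.05. The 3 were Pf4, Cbr2 and Folr2, all with higher means in Slc11a2KD APP/PS1. Pf4 was at 17.7, 19.2, 35.3, 43.1 and 36.5 CPM there and at 8.63, 10.0 and 22.9 CPM (lowest, median and highest) in Control APP/PS1. The last 3 of these samples were above all Control APP/PS1 samples, and the log2 difference was 1.21 (SE 0.29, edgeR adjusted p = 0.205). Cbr2 was at 21.8, 22.1, 38.2, 34.9 and 41.9 CPM against 9.35, 15.98 and 25.6 CPM, a log2 difference of 0.90 (SE 0.26, edgeR adjusted p = 0.205). Folr2 was at 13.9, 10.1, 18.1, 13.8 and 26.8 CPM against 6.18, 7.39 and 16.1 CPM, a log2 difference of 0.91 (SE 0.32, edgeR adjusted p = 0.205).

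**Figure D3:**
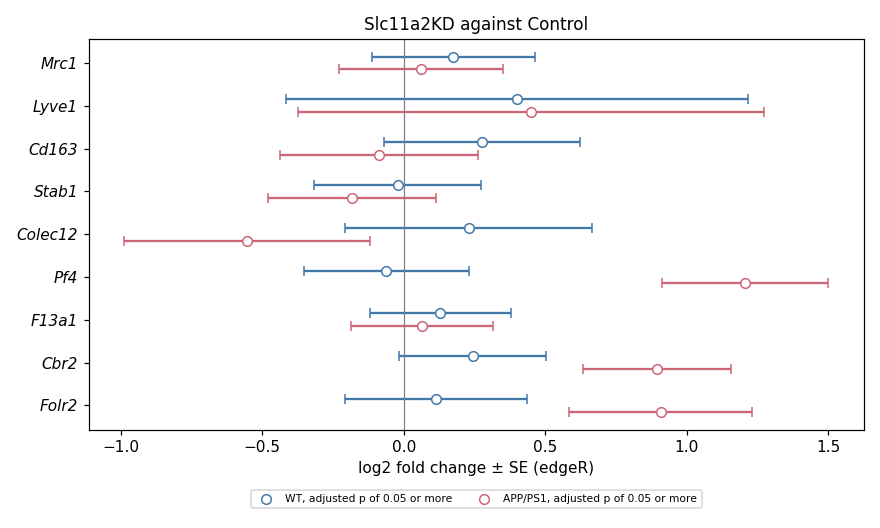
Log2 fold change and its SE (edgeR) of each gene in Slc11a2KD against Control, within WT (blue) and APP/PS1 (red). No point passed an adjusted p of 0.05. In APP/PS1 the values of Pf4, Cbr2 and Folr2 are 1.21, 0.90 and 0.91, and the other genes lie from -0.55 to 0.45.

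The call on Pf4 and Cbr2 depended on the tool and on 1 library. DESeq2 called both higher (Pf4 1.26, adjusted p = 0.0206, and Cbr2 0.94, adjusted p = 0.0495) and 580 of all 18759 genes (3.09%). DESeq2 gave Folr2 (0.95) no adjusted p, and the 3.09% is a share that includes such genes. Limma voom with sample quality weights called neither (adjusted p = 0.0561 for Pf4 and 0.0605 for Cbr2) and 2 of all genes. Without Slc11a2KD APP/PS1 4, edgeR called both (Pf4 1.35, adjusted p = 0.0202, and Cbr2 1.01, adjusted p = 0.0213), as it did 3069 of all 18700 genes then tested (16.4%), so the count of calls over all genes moved with this library as well. Over all alternatives the adjusted p of Pf4 ran from 0.0202 to 1. Among the 5 Slc11a2KD APP/PS1 libraries, 4 are numbered 18 to 23 and are rich in Ttr (64.4 to 378 CPM), against none of the Control APP/PS1 libraries (0.588 CPM or less). With a term for these library numbers the log2 difference of Pf4 was 0.38, that of Cbr2 0.58 and that of Folr2 0.57. With Ttr as a covariate the values were 0.91, 0.77 and 1.02.

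The remaining genes had log2 differences between Slc11a2KD APP/PS1 and Control APP/PS1 of 0.06 for Mrc1 (95% interval -0.51 to 0.63), -0.09 for Cd163 (-0.78 to 0.60), 0.06 for F13a1 (-0.43 to 0.55), -0.18 for Stab1 (-0.76 to 0.40), 0.45 for Lyve1 (-1.16 to 2.06) and -0.55 for Colec12 (-1.41 to 0.30). The difference between the genotypes in the knockdown effect was tested as an interaction. None of the 9 genes passed (edgeR, 0% of all genes called), with 1 of the 9 and 1703 of all genes at an unadjusted p under 0.05, and DESeq2 and limma voom called 25 and 1 of all genes and none of the 9. The log2 values were 1.27 for Pf4 (edgeR adjusted p = 0.544), 0.65 for Cbr2 (0.547), 0.79 for Folr2 (0.549) and -0.78 for Colec12 (0.612). Pf4, Cbr2 and Folr2 were lower and Colec12 higher with APP/PS1 past the threshold in Control animals and not in Slc11a2KD animals, and this test did not show that the effects differ.

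The choroid plexus holds macrophages of its own, and its epithelium gives Ttr, the transthyretin transcript. To describe each gene against this signal, a slope on log2 Ttr CPM was fitted within the 4 groups. Ttr was at 996 and 616 CPM in Control WT 12 and 15 and at 0 in the other 4 Control WT samples, and all Control APP/PS1 samples were at or below 0.588 CPM. In Slc11a2KD WT it was at 29.5, 0.335, 1.08, 417 and 321 CPM, and in Slc11a2KD APP/PS1 at 0.23, 166, 219, 64.4 and 378 CPM. Since the samples fall into a low and a high set, no correlation over all samples is given.

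**Figure D4:**
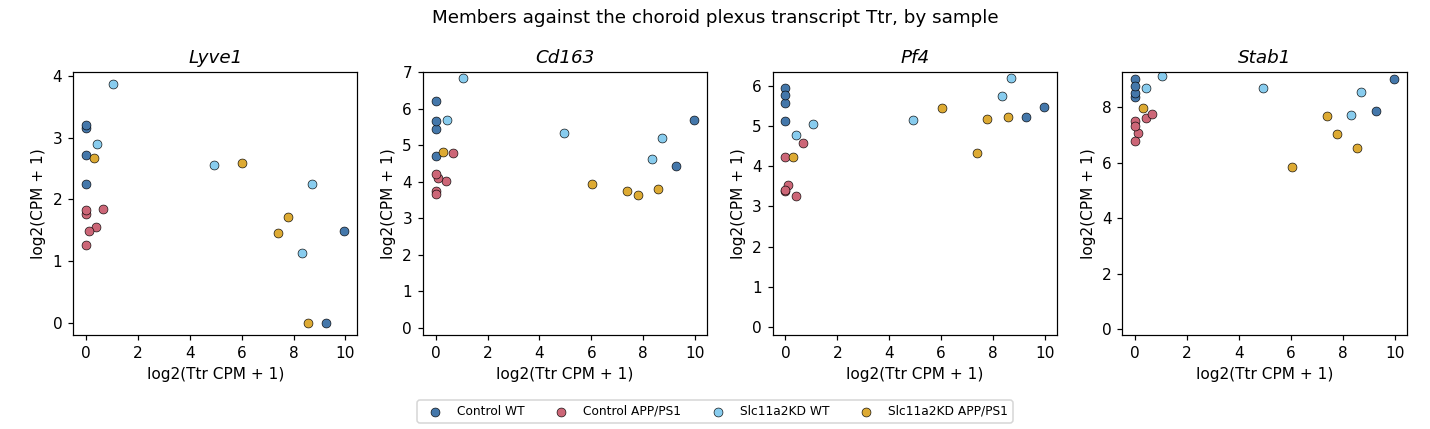
Log2(CPM + 1) of Lyve1, Cd163, Pf4 and Stab1 against log2(CPM + 1) of Ttr, 1 point a sample, coloured by group. Lyve1 is at 0 in 2 of the samples with Ttr and at 5.05 CPM in another, Slc11a2KD APP/PS1 21, and none of the slopes passed the threshold in edgeR.

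None of the 9 genes passed the threshold on this slope (edgeR, 0.533% of all genes called), whereas 15 of the 19 other choroid plexus genes rose with Ttr. An unadjusted p under 0.05 was found for 3 of the 9 genes and 2777 of all genes (14.8%). The slope, in log2 units per doubling of Ttr, was -0.19 for Lyve1 (SE 0.06, edgeR adjusted p = 0.191), and DESeq2 called it (-0.19, adjusted p = 0.0452) together with 236 of all genes (1.26%). Without the 2 libraries at 0 counts it was -0.14 (edgeR adjusted p = 0.0994), an alternative chosen after seeing the data. The next slopes were -0.06 for Cd163 (SE 0.02, edgeR adjusted p = 0.291) and -0.04 for F13a1 (SE 0.02, edgeR adjusted p = 0.309). Mrc1 and Stab1 were at -0.03, Folr2 at -0.01, Colec12 at -0.00, Cbr2 at 0.01 and Pf4 at 0.03. Without Control WT 12, the slope was -0.29 for Lyve1, -0.098 for Cd163, -0.061 for F13a1, -0.064 for Stab1 and -0.044 for Mrc1. None of these passed the threshold either. Folr1, the paralogue of Folr2, had a slope of 0.62 (SE 0.07, edgeR adjusted p = 1.72e-05), so the adjacent pair differed in this respect.

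To see which genes move together from sample to sample, log2 CPM with the group means removed was compared over the 36 pairs (22 samples, two-sided permutation test with 100000 permutations within groups, adjusted over the pairs). A positive Pearson's r past the threshold was found for 12 pairs and a negative one for none, and 10 pairs passed by Spearman's rho. Samples share their depth and scaling, and leaving out Control WT 15 took the number to 7 and leaving out Slc11a2KD WT 22 to 8.

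Mrc1, Cd163, F13a1 and Stab1 formed one set in which every pair passed by r, and every pair but Cd163 with Stab1 and F13a1 with Stab1 also by rho. Within it, r was 0.83 for Cd163 and F13a1 (rho 0.77, permutation adjusted p = 0.00108 for r and 0.0027 for rho) and 0.82 for Mrc1 and F13a1 (rho 0.85, permutation adjusted p = 0.00108 and 0.0018). Lyve1 passed with Cd163 (r 0.58, rho 0.56) and F13a1 (r 0.59, rho 0.58). Pf4, Cbr2 and Folr2 formed a second set, with r of 0.73 for Pf4 and Cbr2, 0.67 for Pf4 and Folr2 and 0.67 for Cbr2 and Folr2 (permutation adjusted p = 0.00288 for each). Without the 2 samples farthest from the median of the first gene these were 0.69, 0.55 and 0.71, that of Cd163 and F13a1 0.81 and that of Mrc1 and F13a1 0.84. The r of F13a1 and Stab1 moved most of the 12 pairs, from 0.58 to 0.39, so this pair rests largely on those samples, and the other 11 were at 0.55 or above. Removing group means leaves differences within a group, such as between libraries numbered 18 to 23 and the rest of the Slc11a2KD samples. Pf4 was at 72.8 and 52.8 CPM in Slc11a2KD WT 19 and 22 and at 26.3 to 34.8 CPM in 1 to 3. In Slc11a2KD APP/PS1, Pf4 was at 17.7 CPM in 4 and 19.2 to 43.1 CPM in the others. Cbr2 and Folr2 were higher in Slc11a2KD WT 3 than in 22. The part of library number or Ttr in the pairs was not tested.

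**Figure D5:**
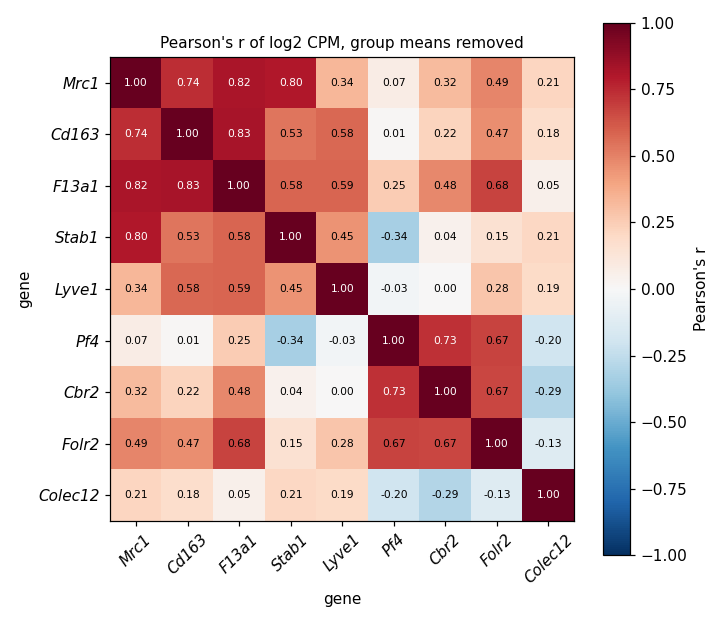
Pearson's r between the genes over 22 samples, on log2 CPM with group means removed, from -1 (blue) to 1 (red). Mrc1, Cd163, F13a1 and Stab1 form one block and Pf4, Cbr2 and Folr2 another. Colec12 passed with no gene.

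Between the sets only F13a1 and Folr2 passed (r 0.68, rho 0.65, permutation adjusted p = 0.0113 for r). Pf4 and Stab1 had an r of -0.34 (rho -0.38, permutation adjusted p = 0.348 for r), and Colec12 passed with none of the others. As measured, with the group means left in, 22 pairs were positive and 5 negative past the threshold.

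Over all 22 samples, the genes whose log2 CPM was most like the mean of the 9 standardised genes were Slc6a9 (Spearman's rho 0.89), Cstf2t (0.88), Tlr8 (0.88), Pid1 (0.88), Ptgs1 (0.86), Il16 (0.86), Mfap3 (0.86), Rgs18 (0.86), Itpripl1 (0.86) and Cd93 (0.85), of 11879 genes ranked. These values include the differences between the groups and are given as a description. Of 25 other genes of border-associated macrophages, 3 were among the 100 most alike.

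These 25 other genes, of which microglia express several, were lower in Control APP/PS1 in 16 cases and higher in 1 (Nrp1), beside 4.48% and 5.99% of all genes, with a median log2 fold change of -1.12 against -0.02 over all genes. Those with the smallest adjusted p were Slc40a1, the iron exporter ferroportin, which fell by 1.26 (SE 0.10, edgeR adjusted p = 7.89e-09), Ccl24 (-1.49), Maf (-1.04), Cd36 (-1.54), Mgl2 (-2.71) and Clec10a (-1.58). In Slc11a2KD APP/PS1 against Slc11a2KD WT, 10 were lower and none higher, beside 6.41% and 9.77% of all genes, with a median of -0.75 against -0.07 over all genes, led by Slc40a1 (-0.99), Maf (-1.24), Cd36 (-1.76), Cd209b (-1.43), Fcna (-1.49) and Igfbp4 (-0.87). All 10 were lower in Control APP/PS1 as well. None passed in either comparison of Slc11a2KD with Control, in the interaction or on the slope on Ttr (edgeR), while DESeq2 called 1 of them lower in Slc11a2KD APP/PS1 against Control APP/PS1. Without Slc11a2KD APP/PS1 4, 7 of the 25 were called in Slc11a2KD APP/PS1 against Control APP/PS1, 1 as lower and 6 as higher, beside the 16.4% of all genes called then.

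A further list held 13 genes of MHC class II border macrophages and dendritic cells, which present antigen. In Control APP/PS1, beside 4.48% of all genes lower and 5.99% higher, 4 were lower (H2-Aa, H2-Ab1, H2-Eb1 and Cd74) and 1 was higher (Itgax, which microglia near amyloid also express). With Control APP/PS1 10 kept, or without Control WT 12 and 15, 1 was lower. In Slc11a2KD APP/PS1 against Slc11a2KD WT 2 were higher (Itgax and H2-DMb1) and 1 was lower (Flt3), near the 9.77% of all genes called higher and 6.41% called lower there, and 1 or 2 higher and 0 or 1 lower were called in the alternatives. None passed in the comparisons of Slc11a2KD with Control or in the interaction (edgeR), while in Slc11a2KD APP/PS1 against Control APP/PS1 DESeq2 called 1 higher (beside 3.09% of all genes), and without Slc11a2KD APP/PS1 4 edgeR called 3 higher (beside 16.4% of all genes). On the slope on Ttr, H2-Aa (0.16, edgeR adjusted p = 0.0467), H2-Ab1 (0.13, 0.0273) and H2-Eb1 (0.16, 0.0394) rose, beside 0.512% of all genes, where none of the 9 or of the 25 genes passed. These calls depended on single libraries. DESeq2 called 4, edgeR with a term for library numbers 18 to 23 called 0, and leaving out each sample gave 0 to 4, with 0 without Control WT 12, Slc11a2KD WT 2, 3 or 19 or Slc11a2KD APP/PS1 4. The genes of this list were named after their values were seen.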

How the data were processed

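Bulk RNA-seq of hippocampal CD11b+ cells of female mice gave 23 libraries. The authors trimmed the reads with Trim Galore 0.6.7, aligned them to mm39 with STAR and counted reads on GENCODE genes. They deposited these counts, whole numbers that were not normalized, and a table of normalized counts that was not used here. Which strand the counting used is not given in the sources used here. No per-sample column of the count table was left unused (0).

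The study's methods removed 1 Control APP/PS1 sample as an outlier on the first principal component without numbering it there. It was inferred to be sample 10, which the labels do not mark and which lay 2.16 SD from its group on that component, and sample 10 was left out here and kept in an alternative. The filter asked for 5 counts or more in 3 or more samples, which 18759 genes met. After TMM scaling, differences were tested in edgeR 4.0.16 (quasi-likelihood, all 4 groups in 1 fit, Benjamini-Hochberg adjustment over all genes tested, threshold 0.05) under R 4.3.3. An SE is the log2 fold change divided by the square root of F, and a 95% interval is 1.96 SE on each side. The slope on Ttr used log2 CPM with a prior count of 2. DESeq2 1.42.0, limma 3.58.1 (voom with sample quality weights), other filters, scaling and covariates, and leaving out each sample were alternatives. Scripts were tested on simulated data. Positions and promoter windows came from GRCm39 with GENCODE M39, which lists 18731 of the 18876 identifiers.

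All 9 genes were given values in every sample. The genes named beside them were up to 6 of the other border-associated macrophage genes with the smallest adjusted p in each comparison, the 10 genes most alike across samples (mean of at least 1 CPM), paralogues and the targeted gene. Genes and lists were chosen with earlier results of these data known. The samples are numbered 1 to 23 without repeats, and the labels pair none of them across groups. WT animals were littermates of APP/PS1 animals, and the labels do not record which samples share a litter. Each sample is a separate label in GEO, and p-values measure the spread between these samples.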

Additional observations from a re-analysis of the deposited data

Results flagged for a closer look

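Dixon's rule was applied to the CPM of the 9 genes in each of the 4 groups, 36 tests, of which chance would set off about 1 in 20. In 3 of them a sample stood apart from the rest of its group. Cd163 was at 26.8 CPM in Slc11a2KD APP/PS1 4, with the nearest sample of the group at 14.3 CPM, a gap of 0.812 of the range. F13a1 was at 44.3 CPM in Control APP/PS1 13, with the nearest sample at 27.4 CPM (0.711 of the range). Folr2 was at 16.1 CPM in the same sample, with the nearest at 9.29 CPM (0.687 of the range). Both samples were at the high end of their APP/PS1 group, and the calls of lower Cd163, F13a1 and Folr2 were also made without them.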

How the results depend on the processing

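Calls on the 9 genes in the 2 comparisons of APP/PS1 with WT did not change in any alternative, except that Pf4 in Slc11a2KD animals passed with a term for library numbers 18 to 23 (-0.87). In Slc11a2KD APP/PS1 against Control APP/PS1, DESeq2 called 2 genes higher where edgeR called 0, and leaving out each sample gave 0 to 2, the 2 without Slc11a2KD APP/PS1 4, where 16.4% of all genes were called. On the slope on Ttr, DESeq2 called 1 gene lower. Positive pairs past the threshold numbered 12, 22 as measured and 7 to 14 without each sample. Some values of the report that passed no threshold changed sign, and the cause was not tested. In Slc11a2KD APP/PS1 against Control APP/PS1 these were Lyve1 (-0.60) and F13a1 (-0.073) with limma voom, Cd163 (0.75) and Stab1 (0.41) with the term for library numbers, and Cd163 (0.33) and Stab1 (0.053) with Ttr as a covariate. Without each sample in turn, Mrc1 ran from -0.19 to 0.29, Cd163 from -0.38 to 0.092, F13a1 from -0.071 to 0.25 and Stab1 from -0.46 to 0.01. In Slc11a2KD WT against Control WT, Pf4 ran from -0.34 to 0.075 and Lyve1 from -0.16 to 0.66 without each sample, and Lyve1 was -0.086 without Control WT 12 and 15. Values that the report does not print also changed sign in 1 or more alternatives, for Cd163, F13a1, Folr2 and Stab1 in this comparison and for Mrc1, Lyve1, Cd163, F13a1 and Stab1 in the interaction. On the slope on Ttr, Pf4 was -0.0069 with the term for library numbers, Colec12 was 0.0045 with a prior count of 0.5, Folr2 was 0.0087 without the libraries with no Lyve1 counts, and without each sample Folr2 ran from -0.026 to 0.019 and Colec12 from -0.020 to 0.012. The alternatives without these libraries and without Control WT 12 and 15 were chosen after seeing the data. Lyve1 (0 to 523 counts a library) is the gene with the fewest counts and the widest intervals. No paired analysis was possible because the groups share no sample numbers and the labels record no litters.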
